A study of Mus musculus with 6 samples.

Results

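Tpm2, Msn, Fscn1, Actn1, Actg1 and Tubb6 encode proteins of the actin and microtubule cytoskeleton that cells use to spread and crawl. They are 6 of the 8078 genes listed in a table of RNA levels from horizontal basal cells, which line the floor of the mouse olfactory epithelium and act as its dormant stem cells. The 6 genes were taken by name, and they had been picked because they stood high after injury in these same libraries, so the values that chose them are given as a description with no test. All mice were 12 weeks old, carried B6;KRT5-CreER;Ai9 fl(Stop)TdTomato, and had received tamoxifen 2 weeks before sorting. In them a Cre recombinase driven by the keratin 5 promoter switches on the red protein TdTomato, and cells were sorted on that colour, so any cell that had used the promoter could enter. The uninjured group (3 libraries) came from undisturbed epithelium. The injured group (3 libraries) came from mice exposed to methyl bromide gas at 180 ppm for 8 h, which strips most of the epithelium, and the tissue was taken 18 h later. Each library pooled cells of several animals, so the replicate is a pool; the labels do not state sex. Values are taken to be FPKM, fragments counted relative to transcript length and library size, so levels of different genes can be set side by side.

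A crawling cell pushes its front forward with growing actin filaments and pulls up its rear by contraction. Gamma-actin, the product of Actg1, forms the filaments. Tropomyosin 2 (Tpm2) lies along them and controls which other proteins can bind, fascin (Fscn1) bundles them into finger-like protrusions, and alpha-actinin 1 (Actn1) crosslinks them and ties them to adhesion sites. Moesin (Msn) links the filaments to the cell membrane. Tubb6 encodes a beta-tubulin, a subunit of microtubules. In wounded skin and airway, basal epithelial cells flatten and migrate over the bared surface before they divide, and actin remodelling drives that movement.

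Some features of the libraries bear on every value below. Summed FPKM ran from 164265 in injured replicate 2 to 231755 in injured replicate 3, and read depth was unknown. The upper quartile was 16.4 FPKM in injured replicate 2, against 18.7 and 19.5 in injured replicates 1 and 3. The median gene stood 0.155 higher in the injured libraries on the log2 scale, a shift that scaling to the upper quartile removed (-0.01). Injured replicate 2 stood apart: its log2 values correlated with the other injured libraries at 0.737 to 0.759 across genes, which are not independent replicates, against 0.853 between injured replicates 1 and 3 and 0.805 to 0.832 between it and the uninjured libraries. In it the summed level of 8 globose basal cell and neuronal precursor markers (of 9 listed) was 529.1 FPKM, against 35.5 to 74.0 in the other 5 libraries. Of the 9 horizontal basal cell markers, 7 had an entry of their own and all 7 were above the lowest table value in every library. Their summed level was 464, 1206 and 514 FPKM in uninjured replicates 1 to 3 and 540, 306 and 620 FPKM in injured ones. Each of the 7 had its lowest value in injured replicate 2. Changes between the groups went both ways, from 0.79 for Itga6 to -0.62 for Col17a1 on the log2 scale. Trp63, the transcription factor that keeps these cells dormant, was at 187, 194 and 157 FPKM in uninjured replicates 1 to 3 and at 112.5, 99.5 and 140 in the injured ones. Krt5 was not analysed here, and Krt14 shares an entry with other keratins. Xist, made from the inactive X chromosome of females, was at 27.0 to 33.8 FPKM in uninjured and at 0.0645 to 0.561 FPKM in injured libraries. The Y-linked gene Eif2s3y was at 18.8, 2.73 and 2.55 FPKM in uninjured and at 23.0, 29.3 and 21.1 FPKM in injured libraries, so uninjured replicate 1 was near the injured level for it and held Xist as well. The sex make-up of the pools thus moved with injury, and its part in the results was not tested.

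All 6 genes stood higher in the injured group mean, by least for Actg1, the most abundant of them at rest. For 5 of the 6, Actg1 being the exception, every injured library was above every uninjured one, and 12.0% of all 7987 genes tested showed that pattern. The members were picked on this comparison, so nothing is read from that count. Their median change was 2.60 on the log2(FPKM + 1) scale, against 0.155 for all genes, and 5 of the 6 had a change above 1, against 5.25% of all genes (3.37% had one below -1). That scale understates changes of low genes. All 6 had their lowest injured value in replicate 2, the library with the lowest summed FPKM. How many of all genes were also lowest there was not counted. In bulk RNA a larger share of cells that express a gene and more RNA per cell cannot be told apart.

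**Figure D1:**
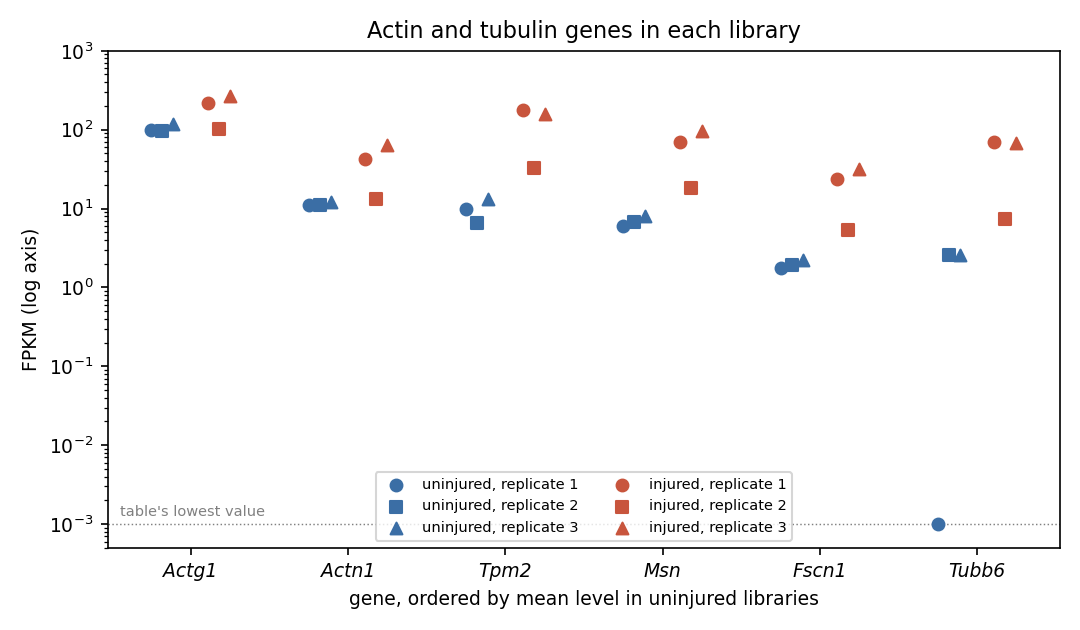
FPKM on a log axis for the 6 genes, ordered by mean level in the uninjured group; each point is 1 library, colour shows the group and shape the replicate number. Actg1 lies between 96.0 and 269 FPKM, above the other 5 genes in every library, and the square of injured replicate 2 is the lowest injured point for every gene.

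Actg1, the filament subunit, was at 98.4, 96.0 and 116 FPKM in uninjured replicates 1 to 3 and at 220, 103 and 269 FPKM in injured replicates 1 to 3. Injured replicate 2 lay inside the uninjured range, and the other injured libraries lay above it. The ratio of group means was 1.90, and the log2 change was 0.82 ± 0.39 (SE, n = 3 and 3). It was the most abundant of the 6 in every library and sat among the most highly expressed genes of the table already at rest, at or above the 97th percentile in all 6 libraries. Beta-actin (Actb), the other cytoplasmic actin, was not analysed here, and reads of the nearly identical actin genes and their pseudogenes could have been split in the counting. Its share of the summed FPKM of Actg1 and Acta2 was 82.4%, 94.0% and 85.9% at rest and 90.2%, 95.6% and 82.2% after injury, with the groups overlapping. The smooth muscle actin Acta2 was at 21.0, 6.08 and 19.1 FPKM and at 23.8, 4.68 and 58.1 FPKM, with the groups overlapping (log2 change 0.47, limma adjusted p = 0.872).

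Tpm2 was at 9.76, 6.63 and 13.1 FPKM in the uninjured libraries and at 176, 32.9 and 158 FPKM in the injured ones. The groups did not overlap, and even injured replicate 2 was 3.34 times the uninjured mean, against 17.8 and 16.0 times in injured replicates 1 and 3. The log2 change was 3.23 ± 0.63 (SE). In resting cells Tpm2 was minor beside the tropomyosin Tpm1, which is broadly expressed: it made up 7.46%, 4.16% and 5.90% of the summed FPKM of both genes. Tpm3 and Tpm4 were not analysed here, so this is not a share of all tropomyosins. After injury the share was 35.4%, 17.8% and 40.9%. Tpm1 itself was at 121, 153 and 210 FPKM and at 321, 152 and 228 FPKM, with overlapping groups (log2 change 0.50, limma adjusted p = 0.627). A share within a library does not depend on how libraries are scaled to each other.

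Actn1 showed the tightest resting values of the 6, at 11.02, 11.2 and 12.1 FPKM, and was at 42.7, 13.4 and 63.2 FPKM after injury. Injured replicate 2 cleared the highest uninjured library by little and stood at 1.17 times the uninjured mean, where the other injured libraries stood at 3.73 and 5.52 times. The log2 change was 1.46 ± 0.50 (SE). Of the summed FPKM of Actn1 and Actn4, the other non-muscle alpha-actinin, Actn1 took 19.6%, 19.6% and 21.5% at rest and 34.7%, 26.7% and 36.5% after injury. Actn1 was picked for standing high after injury, so nothing is read from the separation of these shares. In injured replicate 2 Actn4 was below its uninjured values, which by itself raises the share of Actn1. Actn4 was at 45.1, 46.1 and 44.3 FPKM and at 80.2, 36.7 and 110 FPKM (log2 change 0.60, limma adjusted p = 0.575).

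Fscn1 was scarce in resting cells, at 1.77, 1.92 and 2.25 FPKM, between the 9.40th and 11.7th percentile of all listed genes. It was at 23.7, 5.36 and 31.7 FPKM in the injured libraries, all above the uninjured ones, which is 12.0, 2.70 and 16.0 times the uninjured mean. The log2 change was 2.54 ± 0.56 (SE). Fascin is also abundant in neurons and dendritic cells. Injured replicate 2, with the highest neuronal precursor sum, had the lowest injured level of Fscn1, and the part of such cells in its values was not tested. Among the filament bundlers it went from 2.30%, 2.63% and 2.61% of the summed FPKM of Fscn1, Lcp1, Pls1 and Pls3 to 16.1%, 8.18% and 17.6%. The plastin Pls3 was at 36.7, 33.9 and 40.9 FPKM and at 84.4, 29.6 and 114 FPKM, so its groups overlapped through injured replicate 2.

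Msn was at 5.94, 6.85 and 8.13 FPKM in uninjured libraries and at 69.0, 18.0 and 95.9 FPKM in injured ones, with no overlap. These are 9.90, 2.58 and 13.8 times the uninjured mean, and the log2 change was 2.67 ± 0.56 (SE). Ezrin (Ezr) and radixin (Rdx) do the same linking work and dominated at rest: Msn made up 6.25%, 4.68% and 7.52% of the summed FPKM of the trio in uninjured cells. It made up 36.8%, 16.8% and 36.6% after injury. Ezr was at 63.3, 112 and 76.2 FPKM and at 91.3, 68.3 and 131 FPKM (log2 change 0.20, limma adjusted p = 0.852), and Rdx at 25.7, 27.3 and 23.8 FPKM and at 27.4, 20.8 and 34.9 FPKM (log2 change 0.08, or -0.10 with upper-quartile scaling, limma adjusted p = 0.928). Both overlapped between groups. The gene lies on the X chromosome, and Xist differed between the groups as given above; a part of X inactivation in the Msn values was not tested. Msn and Fscn1 were the closest pair of the 6: after centring each on its own mean, their log2 profiles over the 6 libraries differed by a root mean square of 0.09, where the other 14 pairs differed by 0.40 to 1.75.

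**Figure D2:**
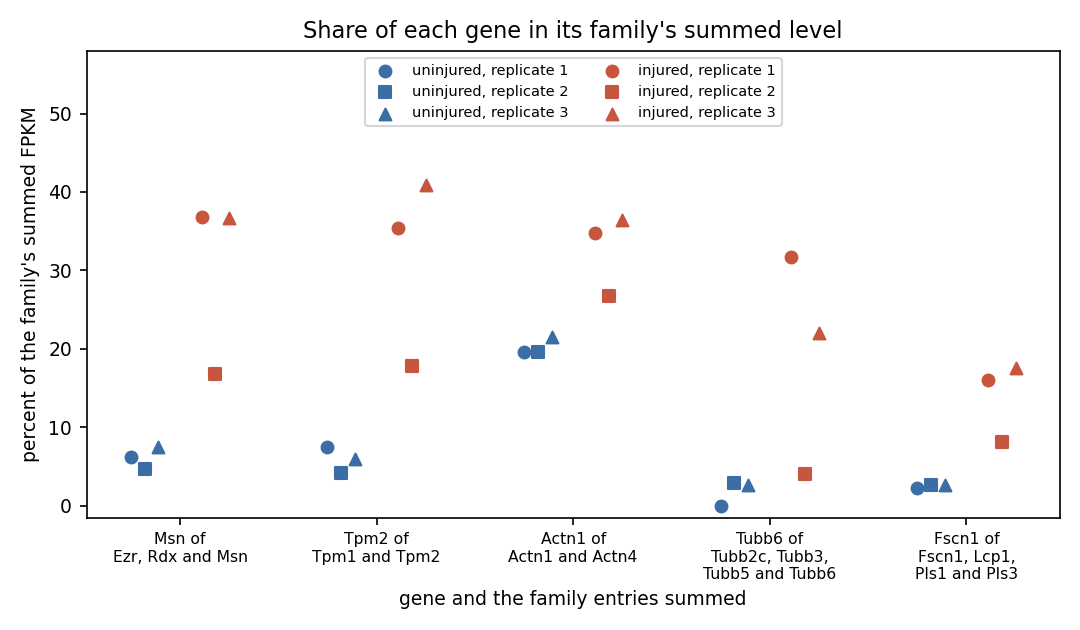
Percent of the summed FPKM of the family entries analysed taken by Msn, Tpm2, Actn1, Tubb6 and Fscn1, with the summed entries named on the axis. Each point is 1 library, coloured by group and shaped by replicate. For each of these 5 genes (Actg1, whose share overlapped, is not drawn) all injured points lie above all uninjured ones, with Msn between 16.8% and 36.8% after injury against 4.68% to 7.52% at rest. The genes were picked for standing high after injury, so nothing is read from that separation.

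The stretches before the transcription starts of these genes show what their promoters have in common and what they do not. RefSeq windows (build GRCm38.p6, while the submitters' notes name mm9 for the expression table) were found for 5 of the 6 genes, not for Tubb6. The 250 bases before the start are shown for Actg1, the abundant filament subunit, and for Fscn1 and Msn, the pair with the likest profiles, each on the gene's own strand. They lie at chr11:120348496-120348745 (minus strand), chr5:142960105-142960354 (plus strand) and chrX:96095795-96096044 (plus strand). Capitals mark the CArG box, the site of serum response factor, which controls many actin genes, the cyclic AMP response element TGACGTCA, and the E-box CACGTG, a site of helix-loop-helix factors.
Actg1: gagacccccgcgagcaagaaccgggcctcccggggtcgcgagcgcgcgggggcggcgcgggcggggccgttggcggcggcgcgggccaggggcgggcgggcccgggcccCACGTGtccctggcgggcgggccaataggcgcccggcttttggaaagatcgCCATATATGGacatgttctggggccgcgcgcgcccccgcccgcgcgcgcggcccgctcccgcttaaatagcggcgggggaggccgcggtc
Fscn1: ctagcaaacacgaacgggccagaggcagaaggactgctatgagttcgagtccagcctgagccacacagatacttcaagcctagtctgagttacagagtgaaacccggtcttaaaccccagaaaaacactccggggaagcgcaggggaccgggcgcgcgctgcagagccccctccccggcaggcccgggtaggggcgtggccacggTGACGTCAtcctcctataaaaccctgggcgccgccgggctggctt
Msn: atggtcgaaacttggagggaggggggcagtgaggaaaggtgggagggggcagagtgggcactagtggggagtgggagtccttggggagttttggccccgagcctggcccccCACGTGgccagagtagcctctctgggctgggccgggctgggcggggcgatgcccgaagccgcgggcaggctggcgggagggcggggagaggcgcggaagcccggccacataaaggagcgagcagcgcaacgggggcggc
The Actg1 stretch holds a CArG box 90 to 81 bases before the start, which 1.47% of all 32851 windows of that length hold, and it was the only one among the 5 genes. The Fscn1 stretch holds TGACGTCA 45 to 38 bases before the start, as 1.55% of windows do, with the letters TATAAA 31 to 26 bases before it. CACGTG stands in the Actg1 and Msn stretches, and in 6.02% of all windows. GGGCGG, the GC box, is in 4 of the 5 (Fscn1 lacks it) and in 32.7% of windows, and the 5 stretches are 62.4% to 79.2% G and C, against a median of 52.4%. The AP-1 site TGANTCA was in none of the 5 stretches and in 6.75% of windows. The same held for the TEAD site GGAATG, found in 12.6% of windows. Both strands were searched, the motifs were chosen with the sequences in view, and a match is a match of letters only. Thus no motif other than the GC box was shared by more than 2 of these stretches, and Msn and Fscn1 shared none of the 7 motifs.

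Tubb6, the tubulin of the group, had the widest range. It was at the table's lowest value of 0.001 in uninjured replicate 1 and at 2.60 and 2.61 FPKM in uninjured replicates 2 and 3, and at 70.5, 7.41 and 66.8 FPKM in injured replicates 1 to 3. All injured libraries were above all uninjured ones. What 0.001 stands for is not given in the sources used here, so no fold is given; the log2 change was 3.87 ± 1.01 (SE), and 3.25 without that uninjured library.

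Among the beta-tubulins with an entry, Tubb6 was the least abundant in resting cells. Its share of the summed FPKM of Tubb2c, Tubb3, Tubb5 and Tubb6 was 2.92% and 2.69% in uninjured replicates 2 and 3, and 31.7%, 4.04% and 22.0% after injury. Tubb5, the main beta-tubulin of dividing and growing cells, was at 34.3, 36.9 and 39.7 FPKM and at 109, 105 and 178 FPKM. Here injured replicate 2 was as high as replicate 1, unlike in the 6 genes, and the log2 change was 1.75 ± 0.30 (SE; limma adjusted p = 0.119). Tubb2c, now named Tubb4b, a beta-tubulin found in cilia, was at 37.9, 41.7 and 46.5 FPKM and at 39.0, 35.4 and 55.8 FPKM (log2 change 0.02, or -0.16 with upper-quartile scaling, limma adjusted p = 0.984). The neuronal beta-tubulin Tubb3 was at 4.73, 7.83 and 8.26 FPKM and at 4.39, 35.0 and 2.67 FPKM: high in injured replicate 2 alone, the library with the high neuronal precursor sum. Reads of beta-tubulin genes, which are close in sequence, could have been split between them in the counting.

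Alpha-tubulins, which pair with beta-tubulins in every microtubule, also varied between entries. Tuba1c was at 45.4, 46.0 and 54.3 FPKM and at 272, 68.5 and 177 FPKM, with no overlap (log2 change 1.60 ± 0.47 SE, limma adjusted p = 0.306). The joined entry of Tuba1a and Tuba1b, the latter the general alpha-tubulin and the former the neuronal one, was at 171, 215 and 257 FPKM and at 223, 427 and 284 FPKM, highest in injured replicate 2. Tuba4a was at 7.50, 7.93 and 8.45 FPKM and at 18.0, 6.07 and 27.8 FPKM. Thus Tuba1c and Tuba4a, like Tubb6, had their lowest injured value in replicate 2, while the entry with the neuronal alpha-tubulin had its highest there.

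**Figure D3:**
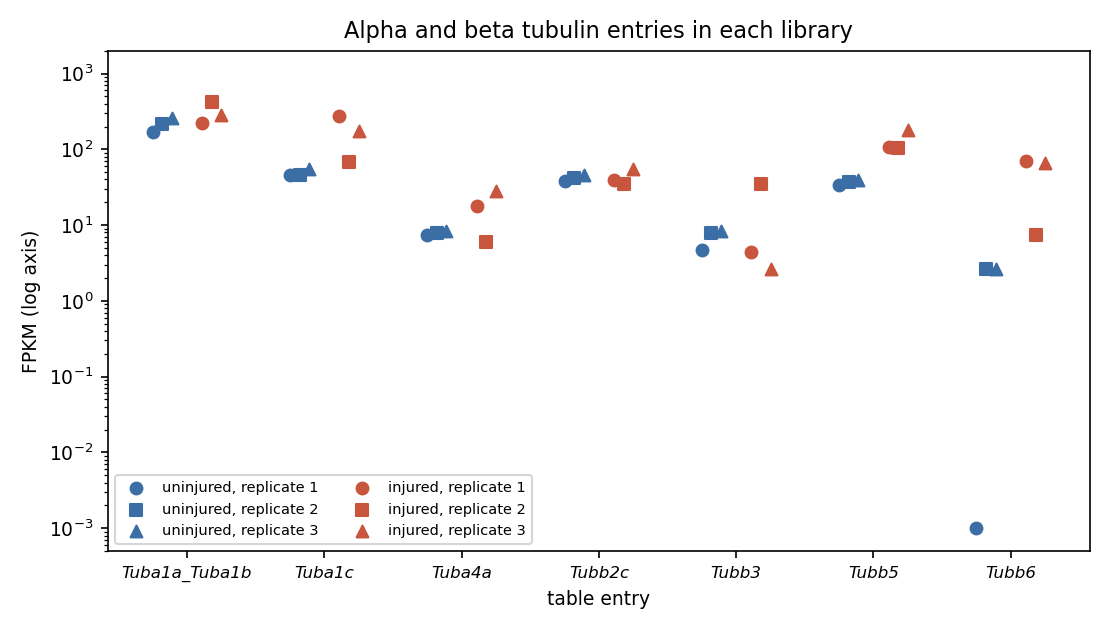
FPKM on a log axis for 7 alpha- and beta-tubulin entries; each point is 1 library, coloured by group and shaped by replicate number. Tubb5 lies between 105 and 178 FPKM in all 3 injured libraries against 34.3 to 39.7 FPKM at rest, while Tubb3 is high only in the square of injured replicate 2 (35.0 FPKM).

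By level, the resting order was Actg1, then Actn1, Tpm2 and Msn, then Fscn1 and Tubb6. Actn1 and Tpm2, Tpm2 and Msn, and Fscn1 and Tubb6 overlapped in their uninjured ranges and cannot be ordered beyond their spread. In each injured library Actg1 was highest, Tpm2 next and Fscn1 lowest of the 6. Over the injured libraries each gene's range overlapped that of its neighbour in level, so the ranges alone do not order them. The places of Msn, Actn1 and Tubb6 differed between injured libraries. Spread differed between the groups: the median SD of the 6 genes on the log2 scale was 0.17 over uninjured and 1.25 over injured libraries, against 0.25 and 0.46 for all genes tested.

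The distance of injured replicate 2 from the resting mean differed between the genes. On the log2 scale, taking the mean of injured replicates 1 and 3 as the full distance, it had gone 42.3% of the way for Tpm2, 37.6% for Tubb6, 37.3% for Msn and 33.6% for Fscn1, but 10.0% for Actn1 and -0.71% for Actg1. The resting mean of Tubb6 includes the value of 0.001 in uninjured replicate 1, so its place in this order is uncertain. In that library Tpm2, Tubb6, Msn and Fscn1 were well clear of their resting range, and Actn1 and Actg1 were near or within it. Without injured replicate 2 the log2 changes were 4.89 for Tubb6, 3.99 for Tpm2, 3.38 for Msn, 3.26 for Fscn1, 2.09 for Actn1 and 1.23 for Actg1. For all 6 genes injured replicates 1 and 3 were then above every uninjured library, as were 29.7% of the 7887 genes tested in that setting.

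**Figure D4:**
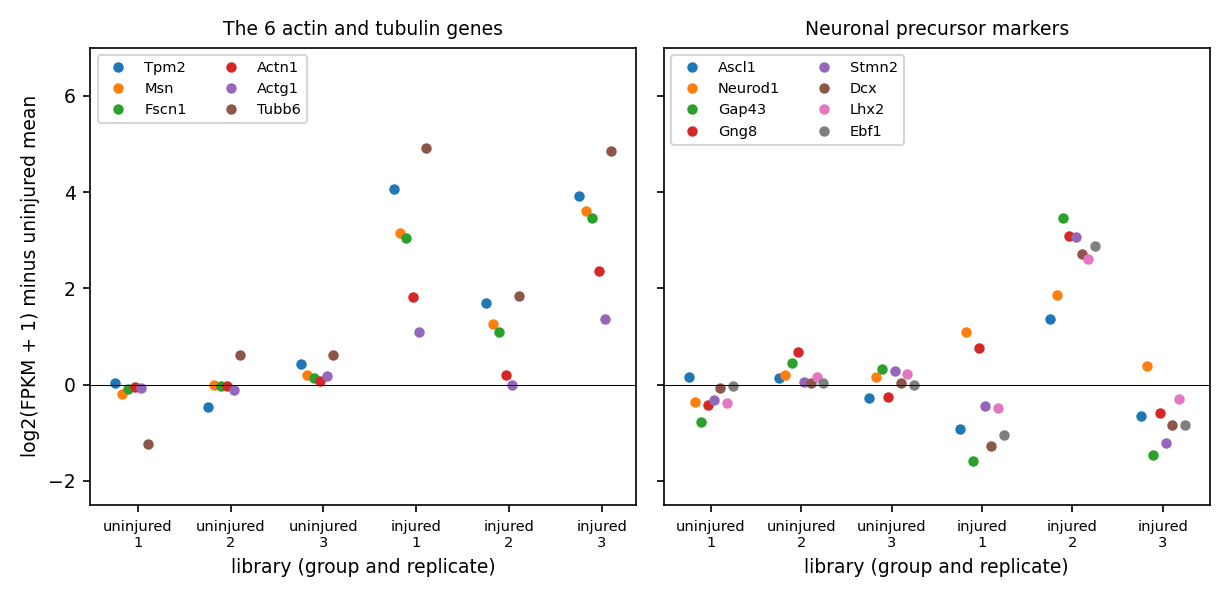
Level of each gene in each library as log2(FPKM + 1) minus its uninjured mean, for the 6 genes (left) and for 8 globose basal cell and neuronal precursor markers (right); each point is 1 gene in 1 library. The 6 genes are highest in injured replicates 1 and 3, and the 8 markers are all highest in injured replicate 2.

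Genes that act beside the 6 in migration were taken from 17 lists of 248 symbols in all, of which 166 table entries matched and 160 were tested outside the 6. Of these 160, 130 (81.2%) had a positive change, against 62.9% of all genes, and the median was 0.32, against 0.155. With upper-quartile scaling 102 (63.7%) were positive, against 48.8% of all genes. With limma and Benjamini-Hochberg adjustment over all 7987 genes at 0.05, 0 were higher and 0 lower; over all genes 0% were higher and 0.0125% (1 gene, Xist) lower. At an unadjusted limma p under 0.05, 20 of the 160 were higher and 3 lower, against 571 and 323 of all 7987 genes. A plain limma fit, with neither a trend nor robust variances, also called 0 of the 160. Every injured library was above every uninjured one for 25 of the 160 (15.6%, against 12.0% of all genes) and below for 6 (3.75%, against 6.75%). Without injured replicate 2 these counts were 84 of 159 (29.7% of all genes) and 12 (14.4% of all genes), and limma then called 15 higher (9.43%, against 3.52% of all genes) and 0 lower (1.17% of all genes). Large changes were few: 12 of the 160, or 7.50%, had a log2 change above 1, as did 5.25% of all genes and 5 of the 6.

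The 15 called without injured replicate 2 were named after their values were seen. They include proteins that work directly with the 6: the filament crosslinker filamin A (Flna, 19.1, 18.2 and 17.1 FPKM against 39.9, 18.1 and 70.4), the plastin Pls3, the actin-severing helper Wdr1, the capping protein Capg, and caldesmon (Cald1) and calponin 2 (Cnn2), which sit on tropomyosin-coated or contractile filaments. They also include the integrin-linked kinase Ilk, the LIM protein Fhl2, the tubulins Tuba1c, Tuba4a and Tubb5, and Cct2, Cct3, Cct7 and Cct8 of the chaperonin that folds actin and tubulin. Over all 6 libraries 0 of the 15 passed, and in each fit that left out another library 0 of the cytoskeletal genes passed.

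In the tubulin folding list all 14 entries had a positive change (13 with upper-quartile scaling), with a median of 0.62, and 7 were above without overlap. Cct3, a chaperonin subunit, had the largest increase among those 7, from 10.6, 11.9 and 10.6 FPKM to 34.7, 13.02 and 30.3 (log2 change 1.06 ± 0.35 SE, limma adjusted p = 0.35), and Tbca, a tubulin cofactor, was the most abundant at 137 ± 15.6 and 153 ± 48.7 FPKM (SD, n = 3). All 7 entries of the Arp2/3 complex, which starts branched filaments at the leading edge, were positive (median 0.31; 6 of 7 with upper-quartile scaling), none without overlap; its most abundant, Arpc2, was at 92.2, 74.2 and 86.3 FPKM and at 153, 91.7 and 234. The 11 myosin II entries were likewise all positive (median 0.38), or 9 of 11 with upper-quartile scaling, with none free of overlap, and Cnn3 was at 45.5 ± 3.64 and 59.7 ± 21.9 FPKM. These medians stand beside 0.155 for all genes, of which 62.9% had a positive change (48.8% with upper-quartile scaling). Only 12.0% of all genes were above without overlap, so nothing is read from finding none among 7 or 11 entries.

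Lists of adhesion and of mechanical signalling were mixed. Among 25 focal adhesion entries the median was 0.37. Of these, 4 were above without overlap (16.0%, against 12.0% of all genes) and 2 below (8.0%, against 6.75% of all genes). Tes, a LIM protein of adhesions, was at 2.36, 4.19 and 4.96 FPKM and at 8.87, 13.9 and 18.9 (log2 change 1.61 ± 0.35 SE, limma adjusted p = 0.174). Tns1, a tensin that ties integrins to actin, was at 25.3, 27.2 and 24.8 FPKM and at 13.8, 10.5 and 16.2, below in each injured library (log2 change -0.90 ± 0.26 SE, limma adjusted p = 0.279). The most abundant adhesion gene, Parva, was at 43.0 ± 0.87 and 44.1 ± 5.77 FPKM. Among 6 entries of the SRF list, Ctgf, a target of mechanical signalling, was below in all injured libraries (37.4 ± 6.39 and 23.1 ± 6.997 FPKM), and Cyr61, of the same family, was at 201 ± 38.6 and 286 ± 202.

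Filament assembly and end-capping genes also held members on both sides. Thymosin beta 4 (Tmsb4x), which stores actin monomers, was the most abundant cytoskeletal gene of its list at 1202 ± 178 and 1350 ± 208 FPKM (log2 change 0.17, or -0.02 with upper-quartile scaling, limma adjusted p = 0.891). In that list of 15 the median was 0.58. Twf1, a monomer-binding twinfilin, was at 22.0 ± 3.23 and 37.5 ± 7.75 FPKM with no overlap, and Limk2, the kinase that switches off cofilin, was at 28.8 ± 1.61 and 21.6 ± 2.85 FPKM, below without overlap. Of the tropomodulins, which cap the slow ends of tropomyosin-coated filaments, Tmod3 was at 18.3 ± 0.87 and 28.0 ± 7.41 FPKM. Tmod1 was at 3.58, 6.18 and 3.45 FPKM and at 1.07, 0.001 and 0.001. The bundler list had Marcksl1, at 0.001, 7.42 and 18.3 FPKM and at 26.9, 36.2 and 26.1, as its only other entry above without overlap. That was 1 of 6 bundler entries besides Fscn1 (16.7%, against 12.0% of all genes). Capzb, the most abundant of the capping list, was at 83.5 ± 22.8 and 127 ± 59.7 FPKM. Of 17 nucleators and formins Diap3 had the largest increase without overlap (0.84 ± 0.44 and 2.98 ± 1.32 FPKM) and Fmnl2 was the most abundant (45.9 ± 12.5 and 30.9 ± 6.77 FPKM), and of 17 microtubule-associated entries the largest increase without overlap was that of Clasp2, which steadies growing microtubule ends (9.74 ± 2.14 and 16.9 ± 4.18 FPKM), and Mtap1b, a neuronal microtubule protein, was the most abundant (52.3 ± 9.26 and 73.9 ± 65.1 FPKM). For none of these genes was the limma adjusted p under 0.05.

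**Figure D5:**
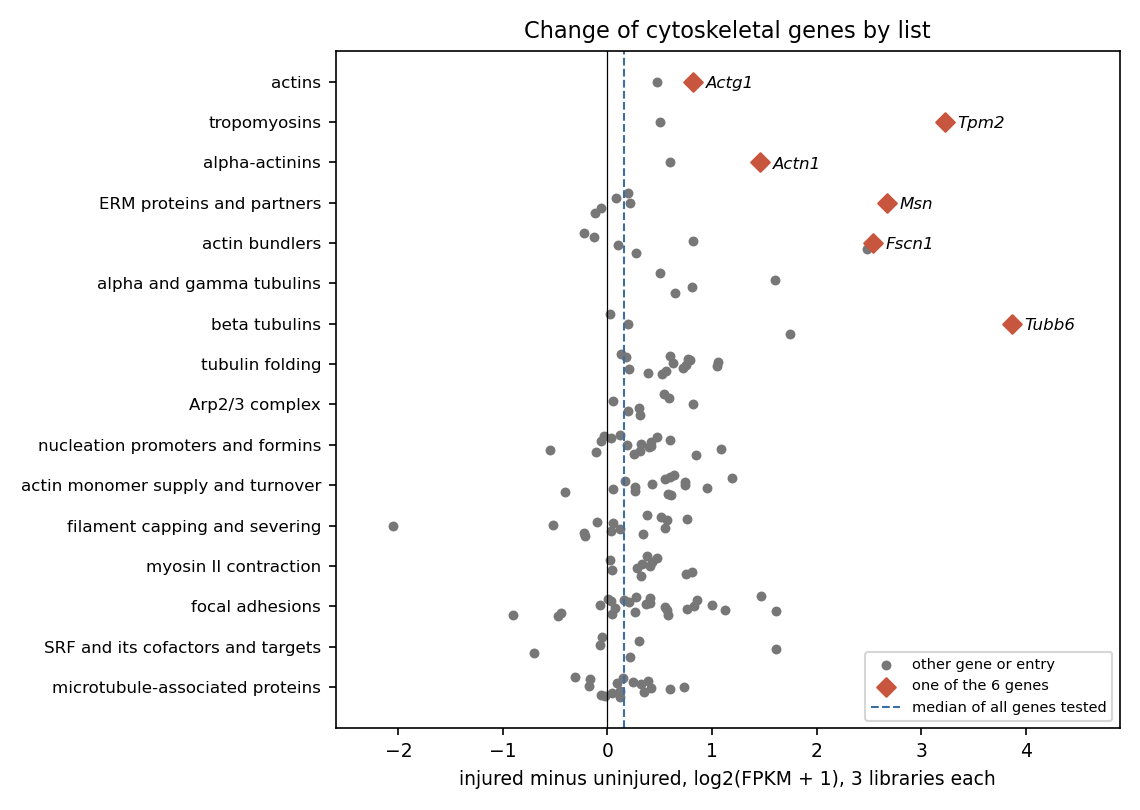
Log2 change (injured minus uninjured, 3 libraries each) of the tested cytoskeletal entries by list, without 1 list that is not reported here; diamonds are the 6 genes, grey points the others, and the dashed line is the median of all genes tested, 0.155. In every family the diamond lies to the right of its relatives, with Tubb6 at 3.87 and Actg1, the smallest of the 6, at 0.82. The 6 genes were picked on this comparison, so nothing is read from that position. Without injured replicate 2 the change was 1.39 for Acta2 and 1.23 for Actg1.

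The genes whose profiles were most like those of the 6 were on none of the 17 cytoskeletal lists. Likeness was the root mean square difference of centred log2 profiles over the 6 libraries, among 5868 others that averaged 5 FPKM or more. Of all 5874 genes at that level only 145 were on the lists outside the 6, so nothing is read from their absence here. Actn1 was matched most closely, by F2rl1, a protease-activated receptor (difference 0.07), and Igfbp3, a binding protein of insulin-like growth factors (0.11). Actg1 was matched by Acly, which makes acetyl-CoA for lipid synthesis (0.08), and Pak1ip1 (0.08). Msn and Fscn1 shared both neighbours, the cornified envelope precursor Sprr1a (0.29 and 0.31) and the chaperone Hsph1 (0.34 and 0.27). Tpm2 was nearest to Mall (0.39) and Sprr1a (0.48), and Tubb6 to the interleukin 1 antagonist Il1rn (0.57) and the metalloproteinase inhibitor Timp1 (0.69). Nearest to the mean profile of the 6 were Hsph1, Sprr1a, Rpl22, Gprc5a and Ddx39, with differences of 0.27 to 0.32. Hsph1 was at 21.1, 27.7 and 22.9 FPKM in uninjured and at 163, 32.6 and 219 FPKM in injured libraries.

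Markers of other cells that carry these proteins were read beside the 6 genes. Tpm2 is abundant in smooth muscle: of 8 smooth muscle and pericyte markers 2 had an entry, Acta2 and the pericyte gene Rgs5, and their sum was 65.6 to 102 FPKM in uninjured and 129 to 164 FPKM in injured libraries. Acta2 was below its uninjured range in injured replicate 2, where Tpm2 was 3.34 times its resting mean. Rgs5 was at 81.2, 84.7 and 46.5 FPKM in uninjured and at 106, 129 and 106 FPKM in injured libraries, above in each and highest in replicate 2. Msn is abundant in leukocytes: of 14 leukocyte markers 8 had an entry of their own. Their sums were 128 to 260 FPKM in uninjured and 97.1 to 189 FPKM in injured libraries. Of the 8, 0 were above without overlap (12.0% of all genes) and 2, Cd74 and H2-Ab1, below (6.75% of all genes). The pan-leukocyte gene Ptprc was at 1.06, 0.80 and 3.52 FPKM and at 17.9, 0.34 and 1.16 FPKM. Ptprc was high in injured replicate 1 alone, while Msn was higher in injured replicate 3. S100a8 was at 6.34, 19.1 and 18.2 FPKM and at 41.4, 11.3 and 22.9 FPKM. S100a9 was at 6.87, 17.1 and 10.9 FPKM and at 41.7, 9.78 and 18.4 FPKM. Both had their lowest injured value in replicate 2, as Msn had, and stood above every uninjured library in injured replicates 1 and 3. Mature olfactory neuron markers (7 of 9 with an entry) summed to 442 to 759 FPKM at rest and 130 to 361 FPKM after injury. Of the 7, 4 were below without overlap, as were 6.75% of all genes. Plunc, the 1 Bowman gland marker with an entry, was at 3023 to 4978 FPKM at rest and at 1182 to 2290 FPKM after injury. Sustentacular markers (5 of 9) summed to 280 to 344 FPKM and 216 to 632 FPKM, with Cyp1a2 and Muc2 below in each injured library. Krt18 went the other way in the mean, from 133, 160 and 173 FPKM to 390, 119 and 558 FPKM (log2 change 0.93, limma adjusted p = 0.542). Like the 6 genes, it had its lowest injured value in replicate 2. Ermn and Sult1c1 overlapped between groups (log2 changes -0.19 and -0.41). Fibroblast markers (3 of 7 with an entry) summed to 126 to 220.0 FPKM at rest and 32.8 to 101 FPKM after injury. Of these, Dcn was below in each injured library, from 116, 162 and 145 FPKM to 27.5, 62.5 and 15.3 FPKM. Col1a1 and Col1a2 went the other way in the mean, with overlapping groups (log2 changes 0.33 and 0.39). None of the markers with an entry on these 6 lists stood at the lowest table value in any library, and no endothelial, skeletal muscle or glial marker had an entry of its own. The part of such cells in the levels of the 6 genes was not tested.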

How the data were processed

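RNA was measured in 6 libraries of sorted cells, 3 uninjured and 3 injured, grouped by title. Libraries were Nextera XT from polyA RNA, per the labels. The submitters' processing notes list FastQC, TopHat, Cuffdiff and mm9, without versions, roles or order. The authors deposited 1 table, which names no unit: its values were read as FPKM from the listing of Cuffdiff and the heading of its gene column. How the authors annotated, scaled, filtered, or treated ambiguous reads was not given in the sources used here, and could move actin and tubulin genes, whose copies are alike. No steps of whole reads were found (at most 3.81% of ratios of low genes between libraries lay within 1% of the commonest ratio), so depth is unknown and no counting intervals were computed. No pair of libraries was identical. The 131 joined entries were not read as single genes. The values of 1 of the gene lists are not reported here, though its genes are in the summed counts.

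Of the genes, 7987 averaged 1 FPKM or more and were tested by limma 3.58.1 (R 4.3.3), after a log2(FPKM + 1) step. Variances were robust and followed a trend with level, p-values were adjusted by Benjamini-Hochberg at 0.05, and the script was tested on simulated data. P-values measure the spread between pools, which may be technical in part. The 6 genes and all lists were chosen with earlier results of these data known. Genes named were the 6, their listed relatives, in each other list the largest increase and decrease without overlap and the most abundant gene, and the nearest profiles. Alternatives were the omission of each library, a replicate block, other filters, pseudocounts (0.1, 0.5), scalings, variance models, library weights and a threshold of 0.01. Plots used matplotlib 3.10.9 under Python 3.11.15.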

Additional observations from a re-analysis of the deposited data

How the results depend on the processing

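The 6 genes kept a positive log2 change under every alternative run, and their median ranged from 2.14 (without injured replicate 3) to 3.32 (without injured replicate 2), against 2.60. The median of the other cytoskeletal genes stayed positive, from 0.14 with quantile normalization to 0.50 without injured replicate 2. Counts of called genes moved more. Leaving out single libraries gave 0 to 278 genes higher and 1 to 92 lower over all genes, and 0 to 15 cytoskeletal genes higher, with the highest counts without injured replicate 2. Without injured replicate 1 there were 1 higher and 4 lower, and without each uninjured library 2 lower. Leaving out injured replicate 2, an alternative for overlap chosen after seeing the data, gave 84 cytoskeletal genes above and 12 below without overlap, against 25 and 6. Library weights called 85 higher and 49 lower, 3 of the higher ones cytoskeletal, and limma without trend and robust steps 3 and 3. Lower genes numbered 2 with a pseudocount of 0.1, 3 with upper-quartile scaling and 4 with quantile normalization. The cause of these differences was not tested.

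No pairing by replicate number was seen. Same-numbered libraries deviated from their group means with correlations of -0.09, 0.07 and -0.08, and not every library correlated best with its own number. With 3 libraries a group, these values cannot exclude a pairing. With the replicate block 134 genes were higher and 87 lower, 4 of the higher ones cytoskeletal. Depth is unknown, so its limits on low values such as Tubb6 at rest cannot be given.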
